A study of Mus musculus with 14 samples.

Results

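The mitotic spindle and cytokinesis genes are the set whose products enter, build and finish mitosis, here 44 listed genes that were followed through the conversion of 3T3-L1 cells into fat cells. A gene was measured by probe sets that the platform annotation gives to that gene symbol alone, and where several did so the probe set with the highest mean over all arrays stood for the gene. By this rule 43 of the 44 genes had a probe set, and 42 passed the intensity filter and were tested, among 8682 genes tested of 18193 with a probe set of their own. Ccnb1, a B-type cyclin, had no probe set of its own. Foxm1, a transcription factor of mitotic genes, read 40.8 at 24 h in SETD5 virus cells and 50.5 at 24 h in empty virus cells, its brightest array and the only one over 50, and was not tested.

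3T3-L1 is a mouse fibroblast line that serves as a model of preadipocytes. One set of cells carried a retrovirus for V5-tagged SETD5, driven by a weak LTR promoter, and the other the empty virus, both as stable lines. Both were grown 2 days past confluence and given the MDI mixture (insulin, dexamethasone and isobutylmethylxanthine) for 48 h, then insulin alone. RNA was taken at 0, 12, 24, 36, 48, 96 and 192 h on 1 Affymetrix array per virus and hour, 14 arrays in all. No hour had a second array of the same virus, so the spread in every test below comes from the other virus or from other hours, and SETD5 cannot be told apart from any other difference between the lines. The question put to the mitotic genes was when they rise and fall around mitotic clonal expansion, the rounds of division that confluent 3T3-L1 cells pass through after MDI, and whether SETD5 shifts this. By flow cytometry the study placed S phase after 12 h, followed by G2 and mitosis up to 36 h. It reported that ectopic SETD5 left cell cycling unaffected.

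The arrays had a common trimmed mean of 100, and 88.4% to 93.8% of the genes tested had an intensity of at least 50 on each array. The summed intensity of 6 fat cell markers was highest at 192 h, at 19410 in SETD5 virus cells and 33297 in empty virus cells, and all 7 preadipocyte and fibroblast markers passed the filter. None of the 5 macrophage, 4 endothelial or 4 epithelial markers passed it, and each of these sums stayed at or below 85.1. The Setd5 probe set read 239 to 350.1 in SETD5 virus cells and 249 to 378 in empty virus cells. Whether it lies in the part of the transcript that the virus carries is not known here, so it is no check of the labels.

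In the cell cycle, mitotic genes are transcribed late, after the genes of DNA replication, and are repressed again in resting cells. In quiescence they are held down by the DREAM complex, and in G2 they are switched on by B-Myb and FoxM1 joined to the same MuvB core. This core binds the cell cycle homology element, which lies near the start of many such genes, usually downstream of CCAAT boxes that bind NF-Y. In preadipocytes that have stopped at confluence, MDI brings back DNA synthesis and then division before the fat cell programme.

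RefSeq promoters (GRCm38.p6, 250 bases before to 50 after the start) were found by symbol for 37 of the 44 members. The cell cycle homology element was searched as TTTGAA or TTTAAA and the CCAAT box as CCAAT, each on both strands. A CCAAT box can share at most 1 base with the element. TTTGAA stood in 28 of the 37 member promoters (75.7%), against 13.8% of the 7157 tested genes with a promoter and 20.2% of all 27025 genes with one. CCAAT stood in 28 members (75.7%), against 43.5% of tested genes and 41.1% of all genes. Both a CCAAT box and TTTGAA or TTTAAA stood in 27 members (73%), against 8.98% of tested genes and 12.2% of all genes. With the window narrowed, after the positions had been seen, to 60 bases before the start and all bases after it, TTTGAA remained in 25 of 37 members (67.6%), against 4.11% of tested genes and 6.36% of all genes. In a list of S phase genes, kept for timing, that window held TTTGAA in 0 of 22 promoters, while 15 of the 22 (68.2%) had a CCAAT box. Over the whole promoter TTTGAA or TTTAAA stood in 7 of the 22 (31.8%), against 31 of 37 members (83.8%) and 22% of tested genes. TTTAAA alone stood in 22.7% of the S phase promoters, 24.3% of members and 10.9% of tested genes. In a wider list of mitosis genes, TTTGAA stood in 23 of 47 promoters (48.9%) and in the narrowed window in 19 (40.4%). A match is a description of letters and not of a bound site.

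**Figure D1:**
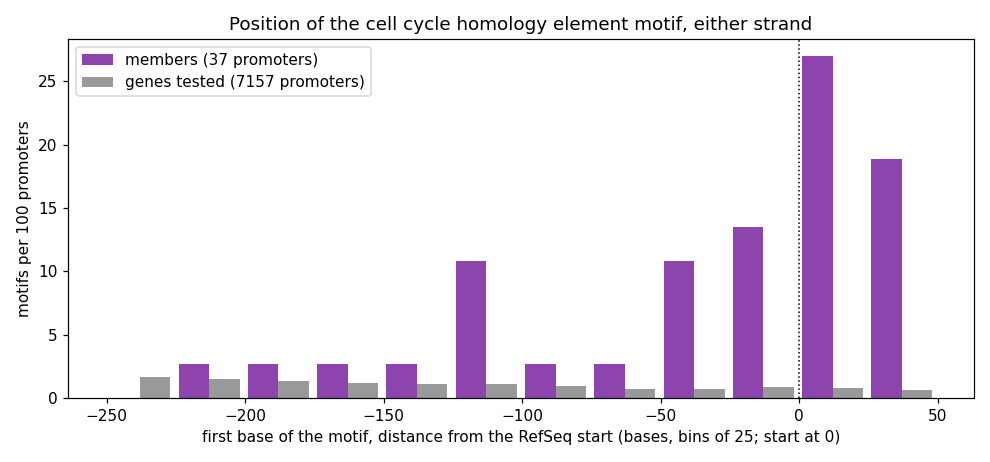
Number of TTTGAA motifs per 100 promoters (vertical axis) by the distance of their first base from the RefSeq start (horizontal axis, 25-base bins, start at 0), for 37 member promoters and for 7157 promoters of tested genes, 1 promoter per gene. The member bars reach 27 per 100 just after the start and 13.5 just before it, where the bars of tested genes stay below 1.

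The promoters of 5 members are shown because both motifs lie before the start in each, in the same order, and because their genes act at different steps. Cdk1 is the kinase that drives entry into mitosis, Top2a untangles the sister DNAs and Kif11 is the motor that pushes the spindle poles apart. Ube2c is a ubiquitin-conjugating enzyme that works with the anaphase-promoting complex, and Espl1 is separase, which cuts cohesin. Each line holds the 110 bases just before the RefSeq start, 5′ to 3′ along the gene, with TTTGAA and CCAAT of either strand in capitals (TTCAAA and ATTGG are the other strands).
Cdk1, chr10:69352913-69353022, minus strand: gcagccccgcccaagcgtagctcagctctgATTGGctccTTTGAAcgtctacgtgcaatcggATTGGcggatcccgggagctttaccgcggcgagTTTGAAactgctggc
Top2a, chr11:99024190-99024299, minus strand: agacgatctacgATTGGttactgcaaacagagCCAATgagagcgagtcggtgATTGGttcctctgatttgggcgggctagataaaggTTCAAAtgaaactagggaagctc
Ube2c, chr2:164769819-164769928, plus strand: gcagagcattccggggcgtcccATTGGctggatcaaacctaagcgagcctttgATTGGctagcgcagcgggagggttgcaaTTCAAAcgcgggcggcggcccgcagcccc
Kif11, chr19:37376272-37376381, plus strand: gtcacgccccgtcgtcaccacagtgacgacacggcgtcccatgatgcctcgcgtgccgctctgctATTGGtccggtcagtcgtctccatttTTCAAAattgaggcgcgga
Espl1, chr15:102296183-102296292, plus strand: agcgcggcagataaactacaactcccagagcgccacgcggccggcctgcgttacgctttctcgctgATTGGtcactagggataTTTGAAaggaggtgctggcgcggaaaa
In these 110 bases TTTGAA began 15 bases before the start in Cdk1, 23 in Top2a, 29 in Ube2c, 19 in Kif11 and 27 in Espl1. Each had at least 1 CCAAT box farther upstream, and in Cdk1 another TTTGAA lay between a pair of CCAAT boxes.

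All 42 tested members were highest at 24 h in SETD5 virus cells and in empty virus cells alike. The median member stood 4.11-fold higher at 24 h than at 0 h in SETD5 virus cells and 3.55-fold in empty virus cells. These folds start from unlike levels, since at 0 h 41 of 42 members were lower with SETD5 virus (median -0.21 on the log2 scale). At 24 h itself 30 of 42 were lower with SETD5 virus (median -0.07). With both arms in 1 fit, 42 of 42 were called higher at 24 h than at 0 h (limma, Benjamini-Hochberg adjusted p under 0.05), where 16.4% of all genes tested were called higher. By 36 h the median member was back near its starting level, at -0.13 on the log2 scale in SETD5 virus cells and -0.29 in empty virus cells, and by 192 h it was at -1.48 in SETD5 virus cells and -1.84 in empty virus cells. In bulk RNA, fewer dividing cells and less RNA per dividing cell cannot be told apart.

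**Figure D2:**
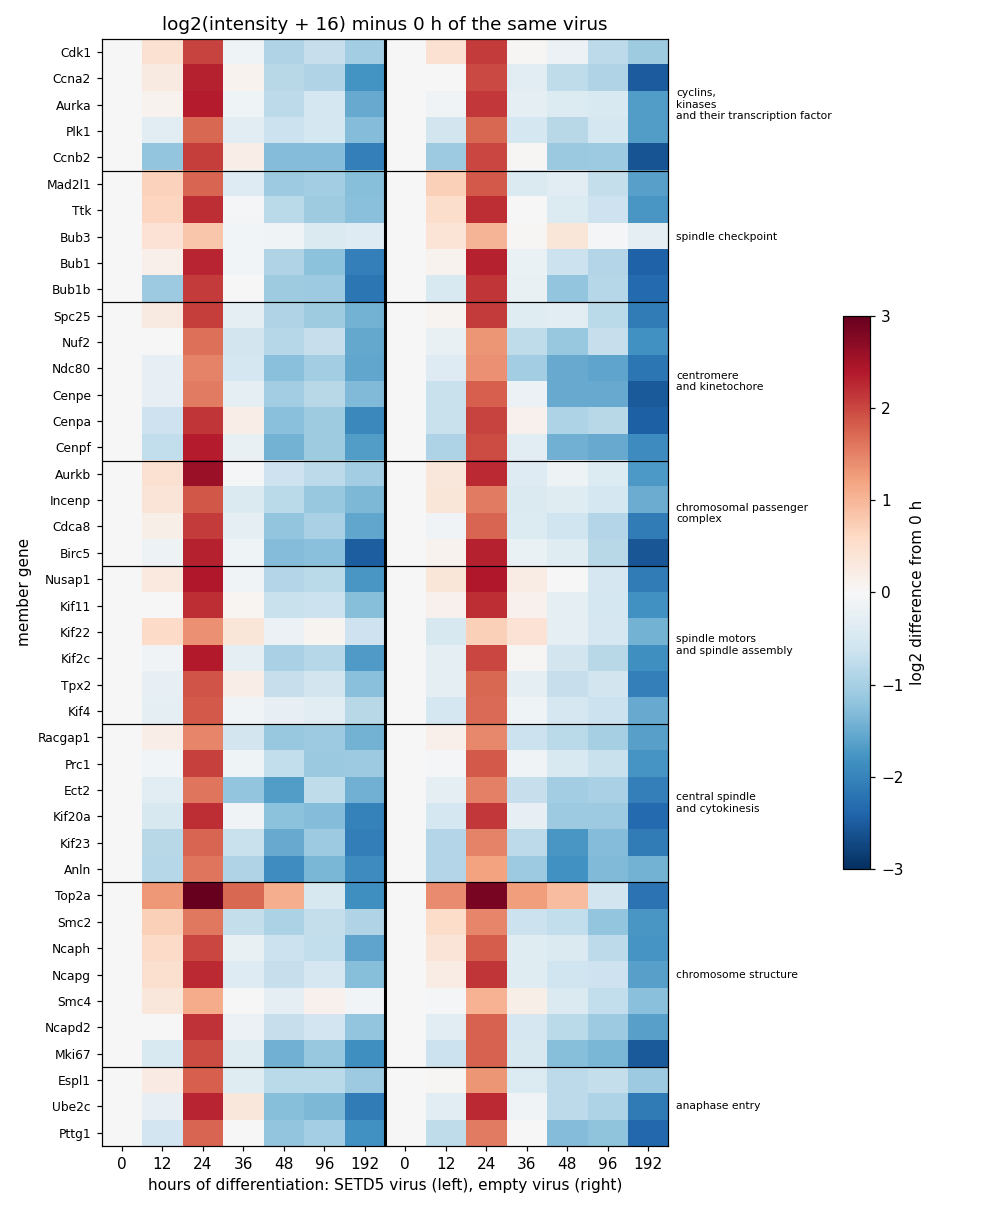
log2(intensity + 16) of each tested member minus its 0 h value in the same virus (colour), by hour (columns, SETD5 virus on the left, empty virus on the right) and by role (blocks of rows, sorted within a block by the 12 h difference). The 24 h column is the reddest for all 42 members in both viruses, the 12 h column is mixed, and the 192 h column is blue for all 42 genes.

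Among the cyclins and kinases, Cdk1 read 522, 716, 2188, 479, 272, 315 and 244 at the successive hours in SETD5 virus cells and 528, 728, 2296, 545, 467, 300.5 and 243 in empty virus cells. Ccnb2, a B-type cyclin that partners Cdk1, read 287, 117, 1256, 332, 106, 106 and 56.9 in SETD5 virus cells and 315, 140, 1301, 325, 136, 139.8 and 39.3 in empty virus cells. Each had a single high hour, 24 h, and Ccnb2, unlike Cdk1, dipped at 12 h before it. The rise at 24 h over 0 h was 2.06 ± 0.18 on the log2 scale for Cdk1 (adjusted p = 2.66e-05) and 2.03 ± 0.17 for Ccnb2 (adjusted p = 2.03e-05). Ccna2, the S and G2 phase cyclin, and the mitotic kinases Aurka and Plk1 rose by 2.15, 2.24 and 1.73 at 24 h.

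Of the spindle checkpoint genes, which hold back anaphase until chromosomes are attached, Bub3 read 1145, 1543, 2039, 1088, 1066, 842 and 867 in SETD5 virus cells and 1060.1, 1423, 2156, 1089, 1359, 1009 and 868 in empty virus cells. Mad2l1 read 565, 921, 1923, 428, 257, 264 and 222 in SETD5 virus cells and 617, 1027, 2258, 449.5, 488, 368 and 188 in empty virus cells. Bub3 had the smallest rise of the members in the fit of both viruses, though in empty virus cells alone Kif22 rose less, and Mad2l1 climbed over both 12 h and 24 h. At 24 h Bub3 was 0.92 ± 0.13 above 0 h (adjusted p = 0.000529) and Mad2l1 1.79 ± 0.21 (adjusted p = 0.000148). Bub1 and Ttk, kinases of this checkpoint, rose by 2.30 and 2.23, and Bub1b, a relative of Bub1, by 2.13.

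At the centromere and kinetochore, where microtubules attach, Cenpa, the histone H3 variant of centromeres, read 276, 174, 1282, 321, 106, 123 and 60.3 in SETD5 virus cells and 292, 178, 1247, 324, 148, 157 and 40.9 in empty virus cells. Spc25, a subunit of the Ndc80 complex, read 239.8, 292, 1054, 193, 122, 107 and 79.1 in SETD5 virus cells and 265, 282, 1184, 201, 210.4, 143 and 49.5 in empty virus cells. The viruses lay close to each other at 24 h in both genes, and Cenpa was below its 0 h level at 12 h in each virus. Cenpa rose by 2.09 ± 0.18 at 24 h and Spc25 by 2.08 ± 0.23. Cenpf, Cenpe, Nuf2 and Ndc80 rose by 2.15, 1.68, 1.49 and 1.43.

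In the chromosomal passenger complex, which corrects attachments and later guides cytokinesis, Incenp, the scaffold, read 632, 837, 2326, 466, 355, 278 and 239.7 in SETD5 virus cells and 676, 876, 2018, 497, 518, 468 and 229 in empty virus cells. Birc5, survivin, read 308, 274, 1594, 279, 115, 119.7 and 42.2 in SETD5 virus cells and 327, 352, 1682, 284, 252, 175 and 41.8 in empty virus cells. From 48 h to 96 h both were lower with SETD5 virus, and at 192 h the viruses were alike. At 24 h the kinase Aurkb rose by 2.41 ± 0.24, Birc5 by 2.31 ± 0.23, Cdca8 (borealin) by 1.92 ± 0.22 and Incenp by 1.70 ± 0.20.

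Of the spindle motors and assembly factors, Nusap1, a microtubule binding protein, read 261, 323, 1459, 243, 135, 141 and 67.3 in SETD5 virus cells and 290.5, 379, 1596, 341, 286, 198 and 55.4 in empty virus cells. Kif22, the motor that pushes chromosomes away from the poles, read 207, 314, 561, 269, 183, 219 and 128 in SETD5 virus cells and 284, 199, 479.7, 391, 228, 195 and 96.5 in empty virus cells. Kif22 was lower with SETD5 virus at 0, 36 and 48 h and higher at the other hours. Its rise at 24 h was 1.05 ± 0.25 (adjusted p = 0.00878), against 2.40 ± 0.23 for Nusap1. Another Kif22 probe set, tested with every probe set of the table, rose by 2.17 ± 0.17 (adjusted p = 2.42e-05), so the small rise belongs to the probe set chosen by the rule. Kif11, Kif2c, Tpx2 and Kif4 rose by 2.21, 2.20, 1.81 and 1.77.

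Among the genes of the central spindle and cytokinesis, Anln, anillin, which organises the contractile ring, read 563, 306, 1732, 293, 143, 208 and 140.4 in SETD5 virus cells and 717, 384, 1688, 328, 192, 275 and 256 in empty virus cells. Kif20a, a motor of the central spindle, read 219, 154, 1072, 203, 83.4, 79.2 and 41.5 in SETD5 virus cells and 259, 176, 1177, 214, 113, 114 and 38.2 in empty virus cells. Both were lower at 12 h than at 0 h and peaked at 24 h, and Anln in SETD5 virus cells ended below its empty virus level. Kif20a rose by 2.16 ± 0.14 at 24 h and Anln by 1.41 ± 0.17. Prc1, which bundles the central spindle, Kif23 and Racgap1, which form centralspindlin, and Ect2, the exchange factor that they recruit, rose by 1.94, 1.61, 1.44 and 1.56.

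In chromosome structure, Top2a read 447, 1126, 3650.4, 1515, 963, 315 and 113 in SETD5 virus cells and 549.5, 1492, 4032, 1340.3, 1059.9, 371 and 106 in empty virus cells. Smc4, a core subunit of condensin, read 896, 1143, 1966, 897, 724, 986 and 845 in SETD5 virus cells and 1204, 1160, 2487, 1359, 889.7, 716 and 494 in empty virus cells. Top2a was the one member that was already far up at 12 h and was still up at 36 h and 48 h in both viruses. It had the largest rise of all members at 24 h, 2.91 ± 0.14 (7.53-fold, adjusted p = 1.92e-06), while Smc4 rose by 1.08 ± 0.29 (adjusted p = 0.0137). Ncapg, Ncaph and Ncapd2, the other condensin subunits listed, rose by 2.19, 1.91 and 1.96, Smc2 by 1.52 and Mki67, the coat protein of mitotic chromosomes, by 1.86.

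Of the genes of anaphase entry, Pttg1, securin, which inhibits separase, read 759.7, 501, 2566, 754, 325, 366 and 205 in SETD5 virus cells and 886, 513, 2629, 893, 351, 375 and 161 in empty virus cells. Ube2c read 540.5, 456, 2693, 685, 214, 204 and 115 in SETD5 virus cells and 632, 501, 3038, 586, 360.1, 325 and 132 in empty virus cells. The 24 h arrays stood well above every other hour in both genes. Ube2c rose by 2.26 ± 0.20, Pttg1 by 1.64 ± 0.14 and Espl1 by 1.56 ± 0.14 at 24 h.

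**Figure D3:**
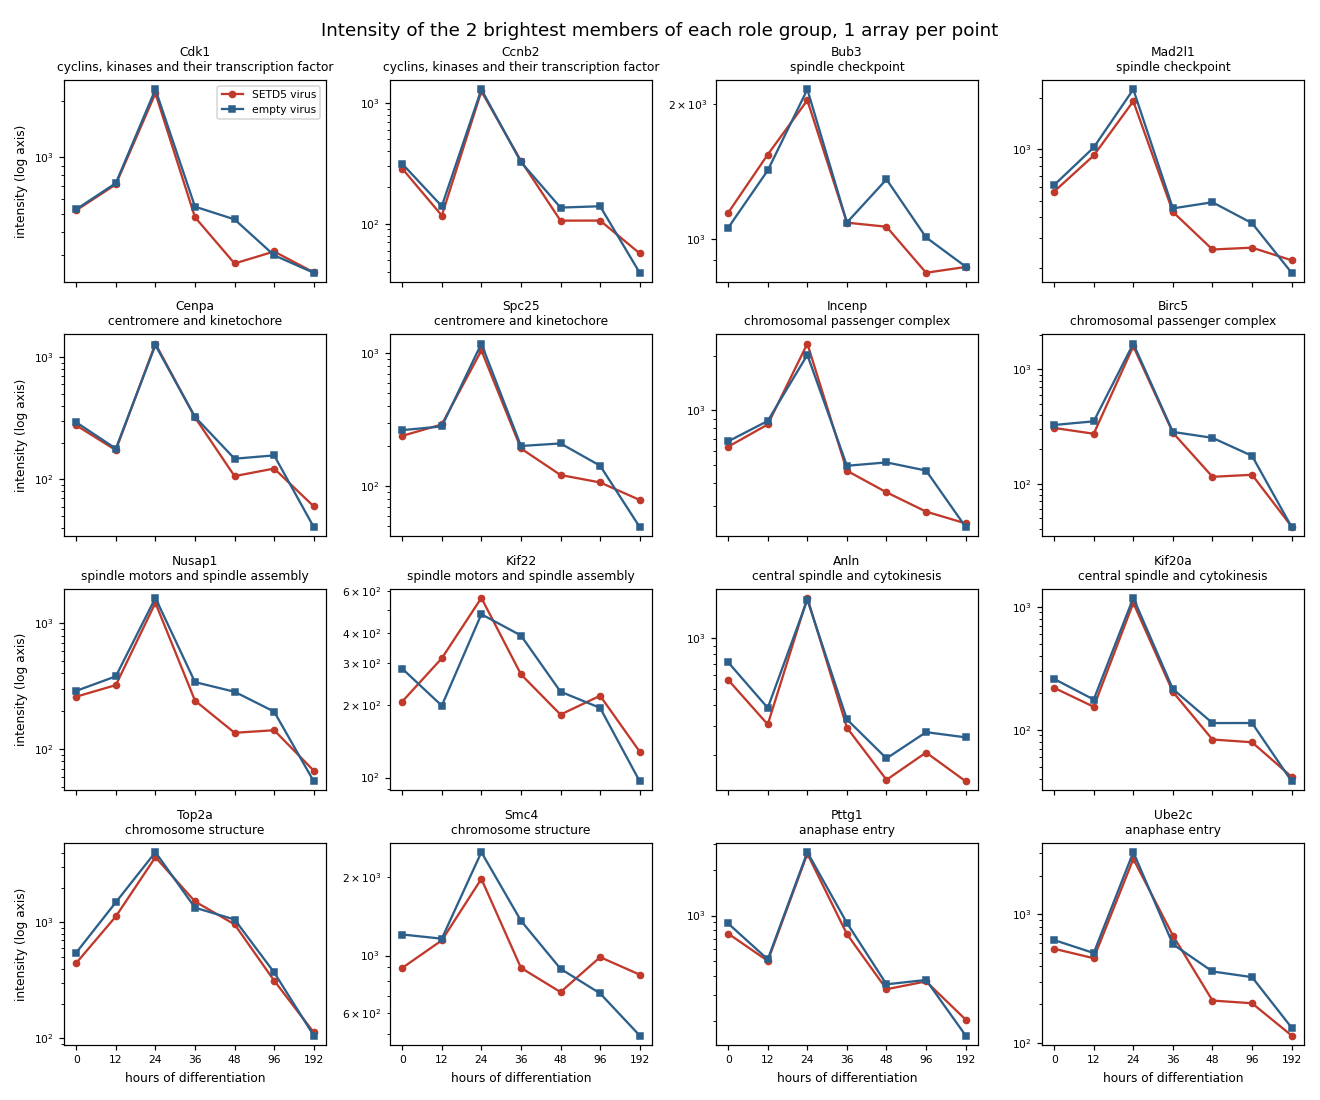
Intensity (vertical log axes, a range of its own for each gene) by hour of differentiation (horizontal axes, hours evenly spaced) for the 2 brightest tested members of each of the 8 role groups, 1 array per point, SETD5 virus in red circles and empty virus in blue squares. All 16 genes peak at 24 h in both viruses, with Smc4 and Anln parting between viruses at 192 h.

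At 12 h, before the peak, members lay on both sides of 0 h. Of 42, 7 were called higher than at 0 h and 11 lower, beside 19.9% and 27.9% of all genes tested, so the shares themselves were near the background. The genes called higher were Top2a at 1.36 ± 0.14, Mad2l1 at 0.71 ± 0.21, Smc2 at 0.64 ± 0.22, Ttk at 0.58, Ncaph at 0.48, Bub3 at 0.42 and Ncapg at 0.36. Those called lower were Ccnb2 at -1.14 ± 0.17, Anln at -0.86 ± 0.17, Kif23 at -0.85 ± 0.11, Cenpf at -0.84 ± 0.13, Bub1b at -0.77, Pttg1 at -0.68, Cenpa at -0.64, Mki67 at -0.55, Kif20a at -0.49, Plk1 at -0.43 and Kif4 at -0.41. By role, chromosome structure had 4 of its 7 genes called higher and 1, Mki67, lower, and the spindle checkpoint 3 of 5 higher and 1, Bub1b, lower. Cytokinesis held 3 of the lower genes and kinetochores and cyclins and kinases 2 each. Differences between roles were not tested. TTTGAA stood within the narrowed promoter window in 8 of 10 genes called lower, 5 of 7 called higher and 12 of 19 called in neither direction. Differences between these groups were not tested. With no filter on dim probe sets, 4 rather than 7 were called higher.

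The step from 12 h to 24 h, a comparison added after the peak had been seen, was upward for all 42 members and called for 42, with 10.7% of all genes called higher. It was largest for Ccnb2 at 3.17 ± 0.17, Cenpf at 2.99 ± 0.13 and Bub1b at 2.90 ± 0.19, genes that had dipped at 12 h. S phase genes give a comparison for timing. Of 27 S phase genes tested, 25 were already called higher at 12 h. The median over the 27 was 1.05, while the member median at 12 h was -0.01. At 24 h the S phase median was 1.07, against 1.93 for the members. The highest hour was 24 h for 42 of 42 members in each virus, but for 12 of 27 S phase genes in SETD5 virus cells and 8 of 27 in empty virus cells, with 12 h the highest for the others.

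**Figure D4:**
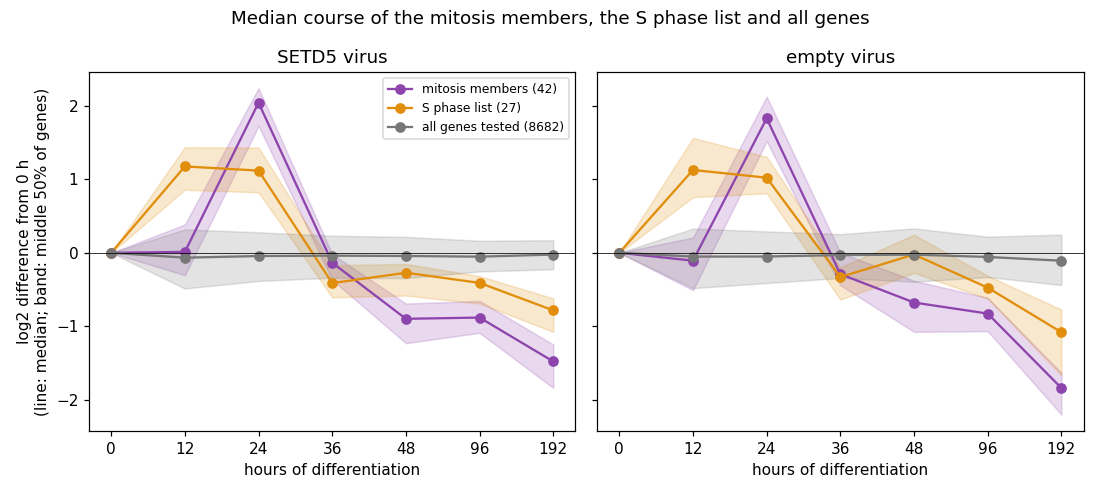
Median log2 difference from 0 h of the same virus (vertical axis) by hour (horizontal axis, hours evenly spaced) for 42 members, 27 S phase genes and 8682 genes tested, SETD5 virus on the left and empty virus on the right. The bands hold the middle 50% of the genes. S phase genes are up at 12 h and 24 h, the members only at 24 h, where their medians are 2.04 in SETD5 virus cells and 1.83 in empty virus cells. At 0 h itself 41 of the 42 members were lower with SETD5 virus.

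From 24 h to 36 h, again a comparison added after the peak had been seen, 41 of 42 members were called lower, with 7.72% of all genes called lower. Kif22 was the exception at -0.65 ± 0.25 (adjusted p = 0.118). The median member stood 4.61-fold higher at 24 h than at 36 h in SETD5 virus cells and 4.51-fold in empty virus cells. Against 0 h, at 36 h 9 members were called lower (17% of all genes) and 1, Top2a at 1.49 ± 0.14, was called higher (12.4% of all genes). At 48 h 32 were called lower (19.9% of all genes), and Top2a at 1.00 ± 0.14 was again the 1 called higher (14.4% of all genes). In empty virus cells 5 members (Aurkb, Bub3, Incenp, Mad2l1 and Spc25) read higher at 48 h than at both 36 h and 96 h, and in SETD5 virus cells 0 did. From 36 h to 48 h in empty virus cells these went from 49.8 to 60.9, 1089 to 1359, 497 to 518, 449.5 to 488 and 201 to 210.4. Each value is 1 array, the pattern was not tested, and its share over all genes was not counted. Up to 48 h the samples were 12 h apart, and a peak between them would not be seen.

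With the mean of 24, 36 and 48 h against the mean of 0 and 12 h, 20 members were called higher and 0 lower, with 15.4% of all genes called higher. The largest were Top2a at 1.12 ± 0.09, Ccnb2 at 0.88 ± 0.11 and Cenpa at 0.72 ± 0.11. Top2a stayed called under every alternative, at 0.44 to 1.80. Ccnb2 was -0.049 with 12 h moved among the later hours, 0.022 without the 24 h pair and 0.31 without the 12 h pair, and Cenpa 0.13, -0.13 and 0.39 in the same order, none of these called. The smallest values, none called, were Smc2 at -0.32 ± 0.14, Mad2l1 at -0.13 ± 0.14 and Racgap1 at -0.13 ± 0.09. The count rested on the hours averaged: it was 1 without the 24 h pair of arrays, 39 without the 48 h pair, 12 without the 12 h pair, 37 with 24 and 36 h alone as the later hours and 11 with 12 h moved among them.

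The median member, already below its confluent level at 48 h, was below it at 96 and 192 h too, in both viruses. At 48 h 1 member in SETD5 virus cells and 2 in empty virus cells still stood above 0 h. At 96 h 2 members did so in SETD5 virus cells and 0 in empty virus cells. In the fit of both viruses 33 of 42 members were called lower at 96 h than at 0 h (9.53% of all genes). At 192 h 40 of 42 were (12.3% of all genes). Bub3 at -0.34 ± 0.13 (adjusted p = 0.101) and Smc4 at -0.67 ± 0.29 (adjusted p = 0.123) were the 2 not called at 192 h. The deepest were Birc5 at -2.52 ± 0.23, Ccnb2 at -2.32 ± 0.17 and Bub1b at -2.25 ± 0.19. The mean of 96 and 192 h was below that of 24 to 48 h for 42 of 42, all called, with 24.5% of all genes called lower. At 192 h 20 members in SETD5 virus cells and 27 in empty virus cells read under 50, where the offset of 16 holds differences small.

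Between the viruses, at 24 h the median member was -0.07 on the log2 scale with SETD5 virus minus empty virus, and 30 of 42 (71.4%) were lower, against 39.8% of all genes. With SETD5 virus 41 of 42 were lower at 0 h (median -0.21, 41.3% of all genes lower), and 35 were lower at 12 h (-0.12, 46.1% of all genes). At 36 h the count was 32 (-0.08, 44.3% of all genes). It was 40 at 48 h (-0.41, 50.5% of all genes) and 35 at 96 h (-0.26, 44.2% of all genes). At 192 h 32 of 42 (76.2%) were higher (0.21), where 61.5% of all genes were. The median of all genes tested was between -0.0031 and 0.12 at every hour. These hourly values rest on 1 array per virus, so they carry no test.

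**Figure D5:**
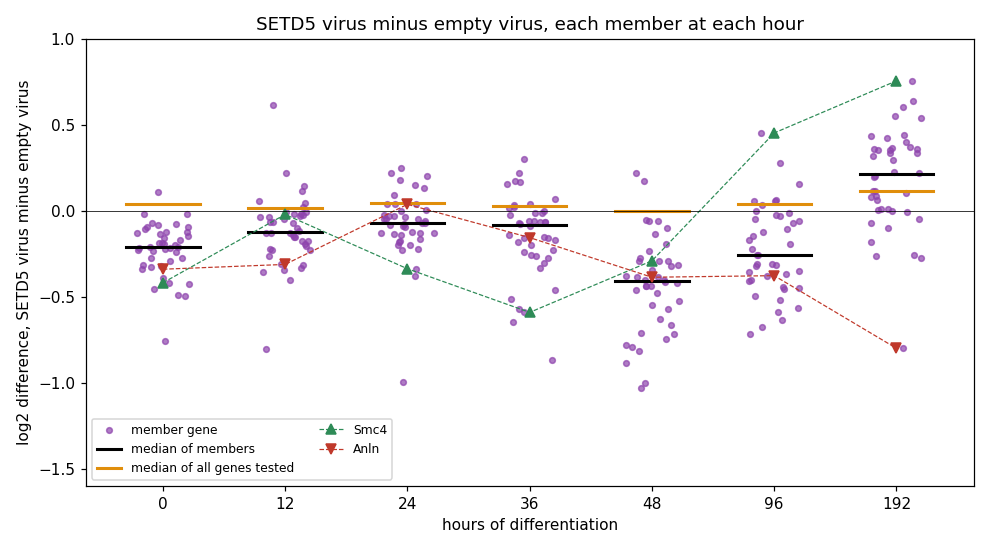
log2 difference of SETD5 virus minus empty virus at each hour (vertical axis) for the 42 tested members (points, spread sideways for legibility), with the member median in black and the median of all genes tested in orange, hours evenly spaced. Smc4 and Anln are joined by lines. The member median is lowest at 48 h (-0.41) and is above 0 only at 192 h (0.21), where Smc4 is the highest point and Anln the lowest.

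The median gap was widest at 48 h. There 11 of 42 members were at least 1.5-fold lower with SETD5 virus, where 2.63% of all genes tested were. They were Birc5 at -1.03, Nusap1 at -1.002, Mad2l1 at -0.88, Cdca8 at -0.81, Ect2 at -0.79, Aurkb at -0.78, Cdk1 at -0.75, Spc25 at -0.72, Ube2c at -0.71, Kif2c at -0.67 and Aurka at -0.63. Among them were 3 of the 4 passenger complex genes and 0 of the 7 chromosome structure genes, a difference between roles that was not tested. The 7 chromosome structure genes were lower too, short of 1.5-fold, from -0.14 for Top2a to -0.48 for Mki67. The S phase genes shared the gap at 48 h: 26 of 27 were lower with SETD5 virus, and the median over the 27 was -0.40.

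Averaged over all hours, 0 to 12 h or 24 to 48 h, 0 members passed the test. Over all 7 hours 13 of 42 (31%) had an unadjusted p under 0.05 in limma, against 23.6% of all genes, and 3.62% of all genes were called in either direction. The lowest adjusted p were 0.0710 for Anln at -0.33 ± 0.09 and 0.0789 for Cenpf at -0.25 ± 0.07. Cenpf and Kif23 were lower with SETD5 virus at 7 of 7 hours, by -0.46 to -0.002 for Cenpf and -0.28 to -0.02 for Kif23. The share of all genes lower at every hour was not counted. Over 0 and 12 h 8 (19%) were at an unadjusted p under 0.05, against 4.11% of all genes, with 0.0115% of all genes called. Over 24, 36 and 48 h 12 (28.6%) were, against 15.4% of all genes, with 1.59% of all genes called. Other probe sets of the members, tested with every probe set, gave calls where the chosen ones did not: over all hours one each of Ncapg at -0.82 ± 0.13 (adjusted p = 0.00866), Smc2 at -0.60 ± 0.13 (adjusted p = 0.0348) and Cenpf at -0.56 ± 0.14 (adjusted p = 0.0489) were lower with SETD5 virus, and over 24 to 48 h that of Ncapg at -1.14 ± 0.15 (adjusted p = 0.0106) and that of Smc2. Of 25 other probe sets tested, 3 were called lower over all hours, 2 over 24 to 48 h and 0 over 0 and 12 h. The shares of all probe sets called were not counted. Over all hours and over 24 to 48 h, the absence of calls thus rests on the probe set chosen for these genes.

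In those 3 hours the most negative members were Cenpe at -0.71 ± 0.15 (adjusted p = 0.0516), Nusap1 at -0.53 ± 0.16 (adjusted p = 0.153) and Ect2 at -0.50 ± 0.14 (adjusted p = 0.121). Cenpe, the kinesin that carries chromosomes to the spindle equator, read 106, 86.5, 341, 83.3, 43.3, 52.7 and 32.6 in SETD5 virus cells and 189, 113, 697, 165, 55.6, 55.7 and 20.0 in empty virus cells. It was dimmer with SETD5 virus at every hour up to 96 h, most of all at 0, 24 and 36 h, and brighter at 192 h. The adjusted p for Cenpe was 0.0477 with quantile normalization, 0.04555 with a filter of 100 and 0.0330 without either the 96 h or the 192 h pair of arrays, and under the other alternatives it lay above the threshold. Another Cenpe probe set gave -0.30 ± 0.10 over 24 to 48 h (adjusted p = 0.168 with every probe set tested). The most positive were Nuf2 at 0.21 ± 0.10 (adjusted p = 0.347), Plk1 at 0.10 ± 0.11 and Tpx2 at 0.03 ± 0.15.

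At 96 and 192 h 3 members were called. Anln was lower with SETD5 virus at -0.59 ± 0.14 (adjusted p = 0.0142), 1 of 42 where 10.7% of all genes were called lower. Smc4 at 0.60 ± 0.14 (adjusted p = 0.0123) and Smc2 at 0.46 ± 0.13 (adjusted p = 0.0325), the partner subunits of the condensin core, were higher, 2 of 42 where 14.5% of all genes were called higher. Both shares were below the background of these late hours, at which the viruses differed in many genes. Of 6 fat cell markers, 4 were called lower with SETD5 virus in these hours, with a median of -1.51 over the 6, and their part in the differences was not tested. The other named values were 0.26 ± 0.23 for Kif22, -0.41 ± 0.15 for Ube2c (adjusted p = 0.15) and -0.33 ± 0.20 for Incenp, none of them called. Without the 192 h pair of arrays Anln was -0.38 (adjusted p = 0.247), Smc4 0.45 (adjusted p = 0.195) and Smc2 0.28 (adjusted p = 0.379), none called. Without hour as a block the adjusted p was 0.907 for Anln, 0.687 for Smc4 and 0.909 for Smc2, and Smc2 was not called with no filter (adjusted p = 0.0820), with every probe set tested (adjusted p = 0.0519) or without the 0, 12 or 36 h pair (adjusted p of 0.0505 to 0.0527).

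Smc4 read 986 and 845 at 96 and 192 h in SETD5 virus cells, against 716 and 494 in empty virus cells, after lower values with SETD5 virus at every hour from 0 h to 48 h. Smc2 read 384, 644, 1179.6, 227, 190.2, 229 and 199 in SETD5 virus cells and 447, 661, 1253, 278, 264, 186 and 122 in empty virus cells. For both genes the viruses changed order between 48 h and 96 h. The difference between viruses in 96 and 192 h minus that in 24 to 48 h was 1.01 ± 0.18 for Smc4 (adjusted p = 0.0188) and 0.72 ± 0.17 for Smc2 (adjusted p = 0.0469), the 2 members called higher, with 1.11% of all genes called higher. The other 2 probe sets of Smc4 gave 0.39 ± 0.11 and 0.42 ± 0.12 at 96 and 192 h (adjusted p = 0.0473 and 0.0415 with every probe set tested). Of the 5 Smc2 probe sets 4 passed the filter, and the other 3 of these gave -0.12, -0.02 and 0.14, none called, so the late Smc2 difference belongs to 1 of the 4 tested. One of these 3 was lower with SETD5 virus over 24 to 48 h, at -0.94 ± 0.13 (adjusted p = 0.0116).

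Cdc20, the activator of the anaphase-promoting complex that the study follows, is not a member but ran with them. It read 732, 543, 2786, 650.2, 271, 312 and 138 in SETD5 virus cells and 786, 557, 2485, 624, 397, 357 and 114 in empty virus cells, highest at 24 h in both. It rose by 1.77 ± 0.17 at 24 h, and its SETD5 difference over 24 to 48 h was -0.10 ± 0.14 (adjusted p = 0.781). Of 75 further mitosis genes in a wider list that includes Cdc20, 57 were tested. At 24 h 55 of these were called higher (16.4% of all genes) and 0 lower (21.9% of all genes), with a median of 1.49 over the 57. Cenpt at 0.20 ± 0.18 (adjusted p = 0.413) and Ncaph2 at 0.35 ± 0.14 (adjusted p = 0.0695), a kinetochore protein and a condensin II subunit, were the 2 not called. Over 24 to 48 h against 0 and 12 h 17 of 57 were called higher, where 15.4% of all genes were. They were led by the kinetochore genes Cenpp at 0.83 ± 0.09 and Spc24 at 0.70 ± 0.14 and the spindle pole gene Aspm at 0.66 ± 0.11. In that average 5 of 57 were called lower, a share below the 16.7% of all genes. They were Trip13 at -0.41, Cenpu at -0.40, Cenpt at -0.36, Mis12 at -0.29 and Lin54 at -0.27. The genes called in the SETD5 comparisons are named here after their values were seen. Over 24 to 48 h 1 of 57 was called lower, Kif20b at -0.56 ± 0.12 (adjusted p = 0.0427), with 0.53% of all genes called lower. At 96 and 192 h 1 was called higher, Ska2 at 0.69 ± 0.13 (adjusted p = 0.00513), where 14.5% of all genes were. There 1 was called lower, Lin9 at -0.40 ± 0.12 (adjusted p = 0.0386), where 10.7% of all genes were. Lin9 read 31.4 and 15.9 at these hours in SETD5 virus cells and 48.1 and 25.1 in empty virus cells, all under 50.

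Of 56 further probe sets of the members, 25 passed the filter. At 24 h 24 of the 25 were called higher, and the exception was one of Bub3 at 0.42 ± 0.16 (adjusted p = 0.0645). The median over the 25 was 1.66. From 24 h to 36 h 24 of 25 were called lower. From 12 h to 24 h 21 of 25 were called higher, and over 24 to 48 h against 0 and 12 h 7 were called higher and 1 lower. The shares of all probe sets called in these comparisons were not counted.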

How the data were processed

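The deposited table holds linear intensities, which the authors computed in GeneChip Analysis Suite 5.0 from average differences, with each array scaled to a trimmed mean of 100. The scaling target is not given in the sources. Of 45100 probe sets, 34944 had 1 gene symbol. A gene was tested where its brightest probe set reached 50 on at least 3 of 14 arrays. log2(intensity + 16) was fitted with limma 3.58.1 in R 4.3.3. Hours were compared with hour as a factor and a block for virus (6 residual degrees of freedom, 4.07 more from eBayes). SETD5 differences were taken within each hour, averaged over all hours or in windows of 0 and 12, 24 to 48, and 96 and 192 h (4 residual degrees of freedom in the windows, 6.41 added). Adjusted p under 0.05 over all 8682 genes was called, values are log2 differences ± SE, and the number of arrays limits the precision. The scripts were tested on simulated data. The members, lists, tests and rule for named genes were chosen with earlier results of these data known. By that rule, the 2 brightest tested members of each of 8 role groups are given on every array, and others for the size of their differences or a call. Cell type markers, a wider mitosis list and an S phase list were counted.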

Additional observations from a re-analysis of the deposited data

Results flagged for a closer look

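Smc4 and Smc2 differed in their SETD5 effect between windows of hours by a test of the difference itself. Smc4 differed by 1.01 ± 0.18 on the log2 scale (96 and 192 h minus 24 to 48 h, adjusted p = 0.0188) and Smc2 by 0.72 ± 0.17 (adjusted p = 0.0469). Without the 192 h pair of arrays the values were 0.86 (adjusted p = 0.122) and 0.54 (adjusted p = 0.283), and without the 36 h pair 0.92 (adjusted p = 0.083) and 0.72 (adjusted p = 0.152).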

How the results depend on the processing

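Settings changed were the scaling, offset, filter, probe sets, block, prior, windows and the hours left out. At 24 h against 0 h 42 members were called higher under each setting that could be fitted, except with an intensity of 100 or more on 3 arrays, where 37 were tested and 37 called. At 96 and 192 h against 24 to 48 h 42 were called lower, except 37 of 37 with that filter and 38 without the 24 h pair of arrays. With no filter 4 members were called higher at 12 h. For 24 to 48 h against 0 and 12 h, 37 were called higher with 24 and 36 h as the later hours, 11 with 12 to 48 h, and 1 to 39 with a pair of arrays left out. For SETD5 with a pair left out, 0 to 2 members were called lower over all hours, 0 to 1 over 24 to 48 h and 0 to 1 over 96 and 192 h, 0 to 4 higher over 96 and 192 h and 0 to 5 higher in the difference between these windows. Members called lower over 24 to 48 h numbered 1 with quantile normalization and 1 with an intensity of 100 or more, Cenpe in both. With no replicate block for hour, 0 were called lower over 96 and 192 h, 0 higher, and 0 higher in the difference. Members called higher over 96 and 192 h numbered 1 with no filter and 1 with every probe set tested. In the difference they numbered 1 with quantile normalization, 1 with an offset of 4, 0 with no filter, 1 with every probe set and 1 with 12 to 48 h as the middle window.

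For 24 to 48 h against 0 and 12 h, Smc2 was 0.097 with 24 and 36 h, 0.16 with 12 to 48 h, and -1.08 to 0.097 with a pair left out. Mad2l1 was 0.34 with either window and -0.91 to 0.34 with a pair left out. Racgap1 was 0.34 and 0.011 with these windows and -0.87 to 0.34 with a pair left out. Cenpa was -0.13 to 1.46 with a pair left out, and Ccnb2 was -0.049 with 12 to 48 h. The SETD5 difference of Tpx2 over 24 to 48 h was -0.017 with 12 to 48 h and -0.11 to 0.13 with a pair left out, and that of Incenp over 96 and 192 h was -0.72 to 0.062. The cause of these changes was not tested. Intensities near the filter limit the 192 h values.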
